A study of Mus musculus with 3 samples.

Results

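The stress keratins Krt6a, Krt6b, Krt16 and Krt17 were followed through mouse dorsal skin that was sequenced cell by cell. They are 4 of the 31053 genes in the deposited tables, found there by symbol, each as 1 row. There were 3 libraries of 3′ transcripts, each the only one of its group and each from 7 week old C57BL/6 mice. The IMQ+celastrol group received celastrol, a plant triterpenoid, together with imiquimod. The IMQ group received imiquimod alone, a Toll-like receptor agonist that causes a psoriasis-like dermatitis in mice. The normal group was control skin treated with glycerin. The labels state no dose, route, number of treatments or number of mice in a library, so the intervals below cover counting error only and no test between groups was possible.

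Keratins form filaments as pairs of a type I and a type II chain. In intact interfollicular epidermis basal cells use Krt5 with Krt14, and suprabasal cells use Krt1 with Krt10. Krt6a and Krt6b are type II chains and Krt16 and Krt17 are type I chains. All 4 are known to be switched on in epidermis between hair follicles after wounding and in psoriasis, where they serve as markers of the activated keratinocyte. Krt17, and to a lesser extent Krt6a and Krt16, are also known as constitutive keratins of hair follicle epithelium.

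Each pair lies side by side in a keratin cluster. On the GRCm38 build (GENCODE vM21), Krt6a (ENSMUSG00000058354) lies at chr15:101689910-101694307 and Krt6b (ENSMUSG00000023041) at chr15:101676023-101680287, with 9622 bases between them. Krt16 (ENSMUSG00000053797) lies at chr11:100246091-100248902 and Krt17 (ENSMUSG00000035557) at chr11:100256217-100261029, with 7314 bases between them. All are on the minus strand, with 9 exons in Krt6a and Krt6b and 8 in Krt16 and Krt17. The coding sequences of Krt6a and Krt6b were 97.6% identical, against 70.6% for Krt16 and Krt17 and 82.9% for Krt16 and the basal keratin Krt14. Because Krt6a and Krt6b are so alike, the last 90 coding bases of each gene, stop codon included, are shown to mark which bases differ there within each pair. They are exonic and written 5′ to 3′, with capitals for bases that differ from the paired gene or stand opposite a gap.
Krt6a: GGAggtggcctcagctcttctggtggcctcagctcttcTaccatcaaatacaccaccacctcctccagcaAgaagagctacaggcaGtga
Krt6b: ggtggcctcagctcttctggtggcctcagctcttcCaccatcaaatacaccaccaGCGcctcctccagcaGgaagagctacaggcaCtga
Krt16: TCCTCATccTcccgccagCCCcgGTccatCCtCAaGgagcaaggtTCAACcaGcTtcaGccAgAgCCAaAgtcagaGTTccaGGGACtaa
Krt17: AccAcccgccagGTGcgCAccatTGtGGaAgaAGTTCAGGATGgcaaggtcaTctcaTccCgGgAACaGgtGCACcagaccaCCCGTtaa
The Krt6a stretch lies at chr15:101690467-101690556, that of Krt6b at chr15:101676529-101676618, that of Krt16 at chr11:100246234-100246323 and that of Krt17 at chr11:100256402-100256491. Of 90 bases, 6 are in capitals in each of Krt6a and Krt6b and 40 in each of Krt16 and Krt17. Over the last 500 bases of the transcripts, where 3′ libraries place most reads, Krt6a and Krt6b were 68.3% identical and their longest shared run was 22 bases. Over the whole transcripts the longest shared run was 280 bases, so a read from further upstream could fit both copies and the split between Krt6a and Krt6b is less certain than either pair's sum. On the other strand the annotation places Gm49428 and Gm44342 over Krt6a and Gm44383 over Krt6b, and these were not among the counted genes.

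After filters 6092 IMQ+celastrol, 7495 IMQ and 9558 normal cells were kept, with medians of 10610.0, 8840.0 and 5736.5 UMIs (unique molecular identifiers, each counting 1 captured transcript). Epithelial clusters held 1934 IMQ+celastrol, 1330 IMQ and 4329 normal cells. Classes were named from marker genes after clustering without the 4 stress keratins, and names end in "-like" because they rest on transcripts alone. The basal-like class held 775 IMQ+celastrol, 417 IMQ and 1054 normal cells. The suprabasal-like class held 360, 358 and 581 cells in the same order of libraries, and the upper follicle-like class 457, 362 and 374. The classes came from different clusters in different libraries. Basal-like IMQ cells were mainly 407 cells of cluster 2, whose leading genes include the cycling genes Ube2c and Top2a, whereas normal basal-like cells were mainly 840 cells of cluster 0, led by Fcgbp and Krt15. Suprabasal-like IMQ cells were mainly 354 cells of cluster 5, led by Sprr2d and Cnfn, against clusters 11, 13 and 18 in normal skin, led by Krt77, Mt4 and Dapl1. Upper follicle-like IMQ cells were cluster 1 and the normal ones were mainly 371 cells of cluster 9. IMQ against normal therefore compares different cell states under a shared name, and a change of level cannot be told apart from a change of state. Markers of fibroblasts and T cells were low in the 3 classes, with Col1a1 at 3.45 to 30.8 and Cd3e at 0.0389 to 2.90 UMIs for each 1000000 UMIs.

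IMQ keratinocytes held far more of the stress keratins than normal ones in both epidermal layers. Levels are given in CPM, the gene's UMIs for each 1000000 UMIs of the class. In suprabasal-like cells Krt16 stood at 17688.5 CPM in the IMQ library, against 611 CPM in the normal library. Krt6b, the copy most restricted to differentiating cells here, stood at 10214 CPM in IMQ suprabasal-like cells and 31.2 CPM in normal ones. Krt6a stood at 7574 CPM in IMQ suprabasal-like cells, against 51.0 CPM in normal ones, and Krt17 at 5592 against 1391 CPM. The ratios were 29.0 for Krt16 (95% interval 28.0 to 29.9), 327 for Krt6b (283 to 380), 148 for Krt6a (133 to 167) and 4.02 for Krt17 (3.93 to 4.11). At clustering resolution 0.6 the log2 ratio of Krt6a was 9.92, against 7.21 here, that of Krt6b 10.2 against 8.35, that of Krt16 6.15 against 4.86 and that of Krt17 1.39 against 2.01, so the counting intervals understate the error. Of 299 Krt6a UMIs in normal suprabasal-like cells, clusters 11, 13 and 18 held 164, 16 and 9. Of 183 Krt6b UMIs they held 76, 3 and 26. The rest came from 1 cell each of clusters 5 and 10, so both ratios lean on few normal cells. The 4 genes together made up 4.11% of all UMIs of IMQ suprabasal-like cells, against 0.208% in normal ones.

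All 4 genes were at least 2-fold higher in IMQ than in normal suprabasal-like cells, where 10.3% of 10747 genes passed the same line. The median log2 ratio of all genes there was -0.41, so relative to that median the ratios of the stress keratins were larger still. All 4 were also at least 2-fold higher in IMQ than in normal basal-like cells, where 15.3% of genes were. Krt6a stood at 3120.5 CPM in IMQ basal-like cells and 49.3 CPM in normal ones, a ratio of 63.3 (57.8 to 69.5). Of its 469 normal UMIs, clusters 0 and 15 held 183 and 139. The rest came from 4 cells of cluster 2 and 23 of cluster 4, so this interval too understates the error. Krt16 stood at 2232 CPM in IMQ basal-like cells and 205 CPM in normal ones, a ratio of 10.9 (10.4 to 11.4), whose log2 value of 3.45 ran from 2.65 (resolution 0.6) to 5.03 (a gate on each cell) over the alternatives. Krt17 stood at 2895 CPM in IMQ basal-like cells and 388 CPM in normal ones, a ratio of 7.47 (7.23 to 7.72). When layers were instead set by a gate on each cell, the Krt17 log2 ratio was 0.52 and no longer past 2-fold. Krt6b was close to silent in normal basal-like cells, with 2 UMIs among 9516949, and stood at 753 CPM in IMQ basal-like cells. Its ratio of 3583 has a counting interval of 992 to 29585 and carries little precision.

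**Figure D1:**
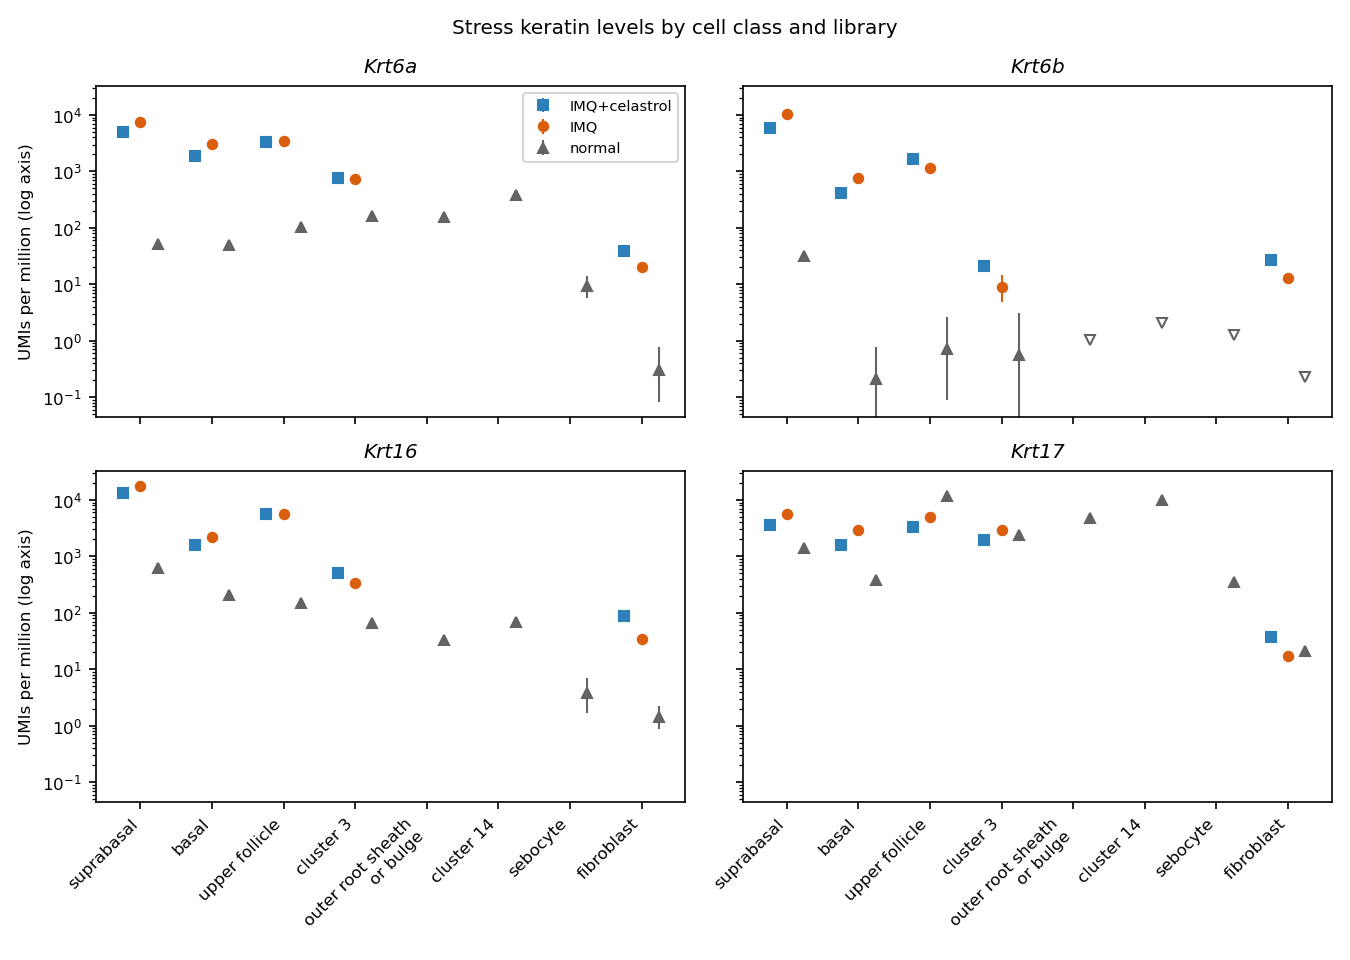
Levels of the 4 stress keratins (CPM, log axis) by cell class, for the IMQ+celastrol, IMQ and normal libraries, with exact Poisson 95% intervals, which are often smaller than the symbols. Open triangles mark classes with 0 UMIs, placed at the level of 3 UMIs; in normal skin Krt17 is highest in the follicle classes, at 11598 CPM in upper follicle-like cells, where Krt6b is at 0.723 CPM.

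Krt17 differed from the other members in the follicle. In upper follicle-like cells it stood at 4906 CPM in the IMQ library, against 11598 CPM in the normal library, so it was 2.36-fold lower (2.33 to 2.40). Its log2 ratio of -1.24 became -0.87 with libraries clustered separately, which is within 2-fold. The other members were higher there. Krt16 stood at 5613 CPM in IMQ upper follicle-like cells and 151 CPM in normal ones, a ratio of 37.1 (33.7 to 41.0). Krt6a stood at 3442 CPM in IMQ cells of this class and 103 CPM in normal ones, a ratio of 33.3 (29.6 to 37.5). Krt6b stood at 1131 CPM in IMQ cells and, with 2 UMIs, at 0.723 CPM in normal ones. At resolution 1.6 the log2 ratio of Krt16 was 3.02, against 5.21 here, and that of Krt6a 3.51, against 5.06. So 3 members were at least 2-fold higher, against 10.6% of 10492 genes, and 1 was at least 2-fold lower, against 12.2%. Of the markers of this class, Krt79 and Defb6 were higher in it than in basal-like and suprabasal-like cells of every library. Cst6 separated it less in treated skin, at 919.5 CPM against 851 CPM in suprabasal-like cells of IMQ skin, and 1275 against 1434 CPM in IMQ+celastrol skin. Fst stood at 7.38 CPM in IMQ cells of the class and 21.2 CPM in IMQ basal-like cells. The class markers moved with these values: Cst6 stood at 919.5 CPM in IMQ and 31491 CPM in normal upper follicle-like cells, Krt79 at 3069 and 9570 CPM, and the suprabasal keratin Krt1 at 4892 and 113 CPM. Their part in the Krt17 difference was not tested.

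Normal skin gave the constitutive pattern of each gene. Among 20 epithelial class and library sums of at least 50 cells, the order of Krt17 began with normal upper follicle-like cells and normal cells of cluster 14 (10061 CPM; led by Wfdc18, Pthlh and Alcam), before IMQ suprabasal-like cells. Normal outer root sheath or bulge-like cells stood at 4849 CPM, within counting error of IMQ upper follicle-like cells. Krt17 was lowest in normal sebocyte-like cells, at 348 CPM, and in normal basal-like cells.

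Krt6a in normal skin was highest in cluster 14, at 382 CPM, and stood at 161 CPM in cluster 3 and 153 CPM in outer root sheath or bulge-like cells, which their counting intervals do not separate. Within the normal suprabasal-like class Krt17 was uneven, at 3428 CPM in cluster 13, whose leading genes include Cst6, against 421 CPM in cluster 11 and 308 CPM in cluster 18. Krt6a was at 51.0 CPM in normal suprabasal-like and 49.3 CPM in normal basal-like cells, again within counting error of each other, though both lean on few cells. By cluster it stood at 65.0 CPM (cluster 11), 8.59 CPM (cluster 13) and 6.19 CPM (cluster 18) in suprabasal-like cells. In basal-like cells it stood at 26.9 CPM in cluster 0 and 57.0 CPM in cluster 15. Krt16 in normal skin followed another order, with suprabasal-like cells first at 611 CPM, then basal-like cells at 205 CPM. It too was uneven, at 1006 CPM in cluster 11, 220 CPM in cluster 13 and 272 CPM in cluster 18, against 216 CPM in basal-like cluster 0. Cluster 11 held 2539 of the 3579 Krt16 UMIs of the normal suprabasal-like class. Krt6b had 194 UMIs in the whole normal library and 94.3% of them came from suprabasal-like cells. Of these 183 UMIs, clusters 11, 13 and 18 held 76, 3 and 26. The rest came from 1 cell each of clusters 5 and 10, which otherwise held IMQ or IMQ+celastrol cells, so this share leans on few cells. In outer root sheath or bulge-like cells Krt6b had 0 of 2953443 UMIs, whose upper 95% limit is 1.25 CPM. Of 41 normal cells with at least 5 UMIs of Krt75, a keratin of the follicle's companion layer, 39 held Krt17, 8 held Krt6a, 8 held Krt16 and 0 held Krt6b.

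**Figure D2:**
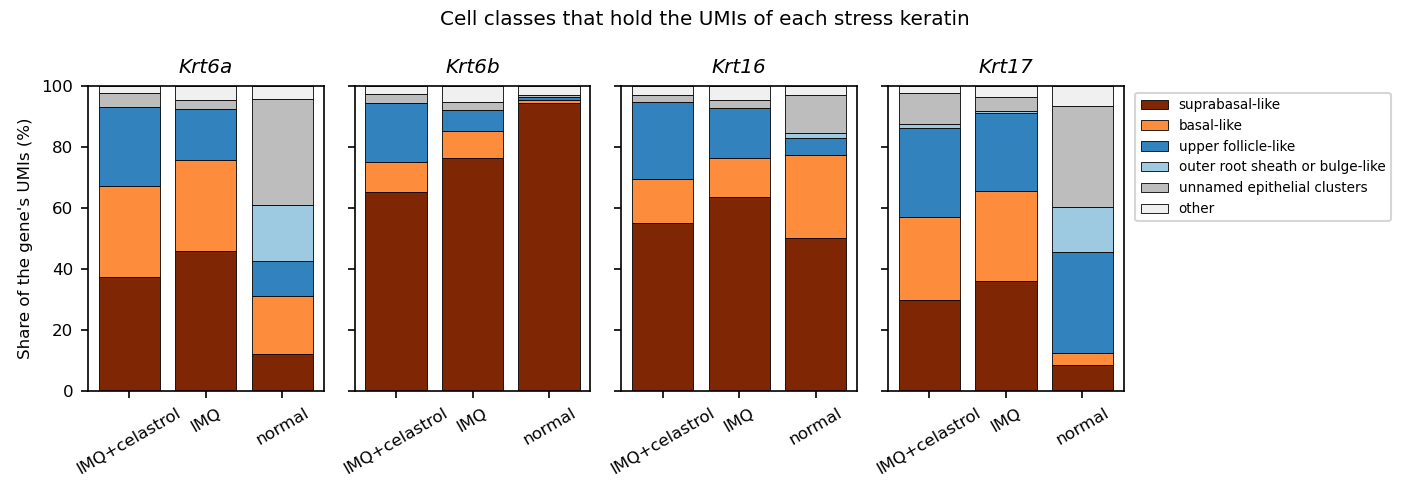
Share of each gene's UMIs (%) that came from each cell class, for the IMQ+celastrol, IMQ and normal libraries; "other" holds all remaining cells. Suprabasal-like cells held 63.7% of Krt16 UMIs in the IMQ library and 50.035% in the normal library, whereas they held 36.1% and 8.43% of Krt17 UMIs.

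Cluster 3 stayed unnamed (led by Fst, Sostdc1 and Aldh3a1) and held at least 50 cells of every library, 237 from IMQ+celastrol, 56 from IMQ and 192 from normal skin. No other epithelial cluster did. Krt17 stood at 2957 CPM in its IMQ cells and 2380 CPM in its normal cells, a ratio of 1.24 (1.19 to 1.29). Krt6a stood at 743 CPM in IMQ and 161 CPM in normal cells of the cluster, a ratio of 4.61 (4.05 to 5.26), and Krt16 at 334 and 65.4 CPM, a ratio of 5.10 (4.17 to 6.28). The ratios of Krt6a and Krt16 were thus smaller here than in the 3 named classes, a difference between classes that was not tested. Krt6b had 15 and 1 UMIs there, too few to call. So 2 of 3 members measured were at least 2-fold higher and 0 lower, where 6.35% of 8599 genes were higher and 7.23% lower. In IMQ+celastrol cells of cluster 3, Krt6a stood at 770.4, Krt16 at 498 and Krt17 at 1971 CPM. Against IMQ cells 1 member, Krt6b at 21.2 against 8.81 CPM, passed the 2-fold line upward (4.67% of genes) and 0 passed it downward (1.79%). That Krt6b ratio rests on 15 IMQ UMIs, and its interval, 1.41 to 4.43, does not secure a 2-fold difference. Against normal cells 3 were at least 2-fold higher (6.38%) and 0 lower (5.18%), where Krt6b, 1 of the 3, had 134 against 1 UMIs.

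Skin given IMQ+celastrol had lower levels of the stress keratins than IMQ skin in both epidermal layers, by less than 2-fold. In suprabasal-like cells Krt16 stood at 13073 CPM in the IMQ+celastrol library and 17688.5 CPM in the IMQ library. Krt6b stood at 5903 CPM in IMQ+celastrol and 10214 CPM in IMQ suprabasal-like cells, Krt6a at 4998 and 7574 CPM, and Krt17 at 3625 and 5592 CPM. These were 1.35-fold (Krt16), 1.73-fold (Krt6b), 1.52-fold (Krt6a) and 1.54-fold (Krt17) lower. In basal-like cells Krt6a stood at 1877 CPM in IMQ+celastrol and 3120.5 CPM in IMQ cells, 1.66-fold lower. Krt17 was 1.84-fold, Krt6b 1.83-fold and Krt16 1.40-fold lower there. So 0 of 4 members were at least 2-fold lower in either layer, where 3.34% (suprabasal-like) and 3.5% (basal-like) of genes were, and 0 were at least 2-fold higher, where 9.15% and 5.68% were. Against normal skin both layers of IMQ+celastrol skin still stood higher. Krt6a was 98.0-fold higher in suprabasal-like and 38.1-fold higher in basal-like cells, and Krt17 2.61-fold and 4.06-fold higher. All 4 members were at least 2-fold higher in IMQ+celastrol than normal cells of both layers, against 9.31% of genes in suprabasal-like and 10.5% in basal-like cells, where 14.8% and 8.17% were lower. The median suprabasal-like cell held 531 CPM of Krt17 in IMQ+celastrol and 3099 CPM in IMQ skin, and 0 in normal skin.

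The suprabasal-like values did not carry over to the cluster that both libraries shared. Of the 360 suprabasal-like IMQ+celastrol cells, 95 were in cluster 5, which held 354 of the 358 IMQ cells, and 254 were in cluster 10, led by Asprv1, Krt1 and Krt10, which held 4 IMQ cells. Within cluster 5 all 4 members were higher in IMQ+celastrol than in IMQ cells, a direction that was not counted over all genes. Krt17 stood at 8792 CPM in IMQ+celastrol and 5632 CPM in IMQ cells of cluster 5, a ratio of 1.56 (1.54 to 1.58). Krt6a stood at 9826 and 7627 CPM, a ratio of 1.29, and Krt16 and Krt6b had ratios of 1.11 each. The IMQ+celastrol cells of cluster 10 held less, with 9820 CPM of Krt16, 3176 CPM of Krt6b, 2580 CPM of Krt6a and 953 CPM of Krt17.

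The lower level of the suprabasal-like class thus went with cells of cluster 10, and its direction turned when only cluster 5 was compared. The leading genes of cluster 5 include Sprr1b, Sprr2d and Sprr2h, which are closest to Krt6b in pattern (below). Taking cluster 5 alone therefore selects cells by genes that vary with a stress keratin, and the turn is not independent of that choice. Basal-like cells were mixed in the same way, with 332 IMQ+celastrol and 407 IMQ cells in cluster 2 and 440 IMQ+celastrol against 10 IMQ cells in cluster 4, led by Igfbp3, Col17a1 and Dst. In cluster 2 the members kept the direction of the class with smaller differences, from 1.04-fold lower (Krt16) to 1.32-fold lower (Krt17). In cluster 4 the IMQ+celastrol cells held 945 CPM of Krt6a, 863 CPM of Krt16, 759 CPM of Krt17 and 56.6 CPM of Krt6b. Among basal-like cells with cycling markers below 0.1% of their UMIs, 475 in IMQ+celastrol and 199 in IMQ skin, 3 of 4 members were at least 2-fold lower in IMQ+celastrol than in IMQ cells, where 5.91% of 11081 genes were. Krt6a stood there at 1602 against 3606 CPM, Krt17 at 1355 against 3266 CPM, Krt6b at 308 against 1045 CPM and Krt16 at 1525 against 2995 CPM. In cells at or above that line the values lay closer, with Krt6a at 2136 CPM in IMQ+celastrol and 2810 CPM in IMQ cells. The line splits a continuous score, and 25 IMQ+celastrol and 62 IMQ cells lay near it, between 0.8 and 1.2 times its value. This split was chosen after seeing the data. Cells below the line still mix clusters 2 and 4, which the libraries held unequally, with 440 IMQ+celastrol and 10 IMQ cells in cluster 4.

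**Figure D3:**
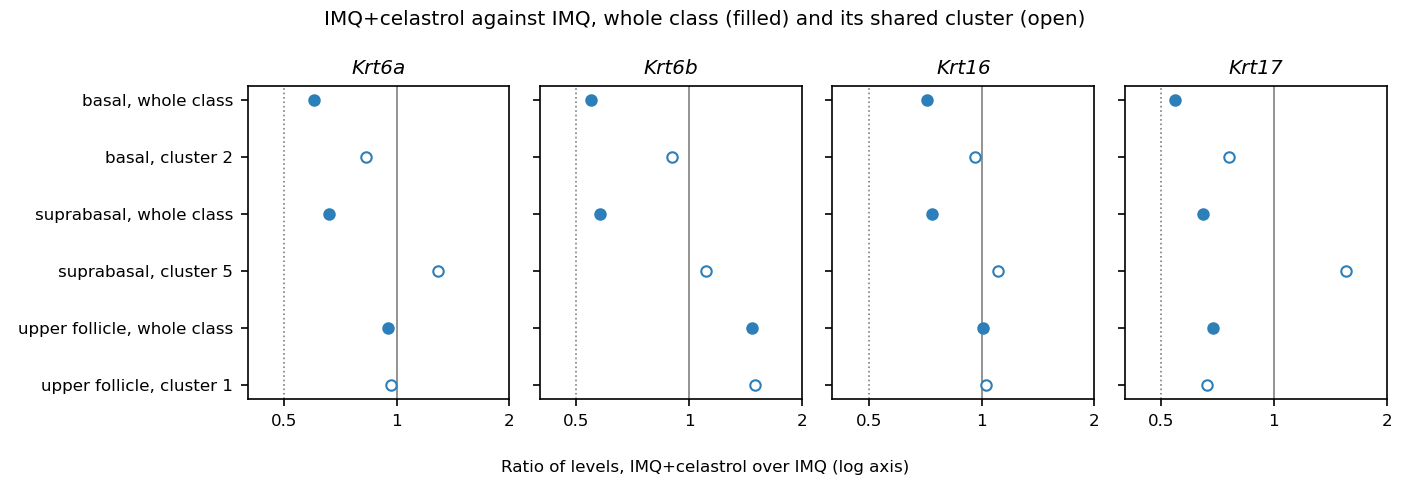
Ratio of levels in IMQ+celastrol over IMQ cells (log axis) for each gene, over a whole class (filled) and within the one cluster of that class that holds at least 50 cells of both libraries (open); the solid line marks equal levels, the dotted line a 2-fold lower level, and 95% counting intervals are smaller than the symbols. In the suprabasal class the filled points lie left of the solid line and the open points right of it.

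Upper follicle-like cells of the IMQ+celastrol and IMQ libraries came mostly from 1 cluster (440 and 362 cells of cluster 1) and differed gene by gene. Krt16 stood at 5649 CPM in IMQ+celastrol and 5613 CPM in IMQ cells, a ratio of 1.01 whose interval, 0.996 to 1.017, includes 1. Krt6a stood at 3257 and 3442 CPM, a ratio of 0.946 (0.933 to 0.959). Krt6b stood at 1660.5 CPM in IMQ+celastrol and 1131 CPM in IMQ cells, a ratio of 1.47 (1.44 to 1.501), whereas Krt17 stood at 3366 and 4906 CPM, 1.46-fold lower. Of the 4, 0 were at least 2-fold lower, against 1.85% of 11257 genes, and 0 higher, against 3.98%. These values depend on the clustering: with libraries clustered separately 3 members were at least 2-fold lower, with log2 ratios of -4.20 for Krt6b, -2.18 for Krt16 and -1.79 for Krt6a, and at resolution 1.6 Krt6b was also lower, at -0.88. The share of all genes that passed the line was not computed under these clusterings. With libraries clustered separately the class held 306 IMQ+celastrol and 356 IMQ cells. The median cell differed from the class sum for Krt16, at 975 CPM in IMQ+celastrol and 2290.0 CPM in IMQ cells. Against normal cells 3 members were at least 2-fold higher in IMQ+celastrol cells (10.2% of genes) and Krt17 was 3.45-fold lower (9.99% of genes were at least 2-fold lower).

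The share of cells that held each transcript was compared after every cell was thinned to 2000 UMIs. Krt16 was found in 92.5% of IMQ+celastrol, 100% of IMQ and 25.4% of normal suprabasal-like cells. Krt6b was found in 64.5% of IMQ+celastrol suprabasal-like cells (59.3 to 69.5), 98.6% of IMQ ones (96.7 to 99.5) and 1.22% of normal ones (0.492 to 2.50). Krt6a was found in 65.4% of IMQ+celastrol, 90.6% of IMQ and 5.0% of normal basal-like cells, and Krt17 in 61.8%, 87.7% and 35.0%. All 4 shares were lower in IMQ+celastrol than in IMQ cells of both layers, with intervals that did not overlap. For basal-like Krt16 they barely stood apart, with an upper limit of 64.2% in IMQ+celastrol and a lower limit of 64.4% in IMQ cells. Fewer members stood apart in suprabasal-like cells without thinning. Such shares were not computed over all genes, so the count has no background beside it. Without thinning, Krt6b was found in 83.9% of IMQ+celastrol, 99.4% of IMQ and 1.89% of normal suprabasal-like cells, and Krt6a in 92.9% of IMQ+celastrol, 99.5% of IMQ and 11.8% of normal basal-like cells. Thinning left out between 0 and 16 cells of a library in each of these 3 classes, and 56 IMQ+celastrol, 114 IMQ and 401 normal fibroblast-like cells. Fibroblast-like cells, which should lack keratins, held Krt16 in 16.1% of IMQ+celastrol, 7.09% of IMQ and 0.310% of normal cells. Free transcripts and remaining doublets cannot be told apart in these shares, which are taken as the background. The Krt6a share of normal suprabasal-like cells (2.26%) and of normal basal-like cells was above the 0.0443% of normal fibroblast-like cells. Median depth before thinning was 31544, 39572 and 9819 UMIs in suprabasal-like cells and 9220, 9204 and 4225 in fibroblast-like cells of the IMQ+celastrol, IMQ and normal libraries.

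Cells that held all 4 transcripts together were rare in normal skin. After thinning, all 4 were found in 42.7% of IMQ+celastrol suprabasal-like cells (37.6 to 48.0), 88.6% of IMQ ones (84.8 to 91.7) and 2 of 574 normal ones. In basal-like cells the shares were 9.16% in IMQ+celastrol and 24.4% in IMQ skin, and 0 of 1040 normal cells did, which allows a share of up to 0.354%. In upper follicle-like cells 18.2% of IMQ+celastrol, 28.3% of IMQ and 1 of 358 normal cells did. Normal upper follicle-like cells mostly held 1 member (82.1%), and 96.1% of them held Krt17. Over the cells of a class, Krt6a and Krt6b levels were correlated with a Spearman rho of 0.83 in 360 IMQ+celastrol and 0.72 in 358 IMQ suprabasal-like cells, and Krt6a and Krt16 with 0.69 and 0.42. Krt16 and Krt17, which are neighbours in the genome, were less related, at 0.57 and 0.10. These cells share a library and an animal source, so the coefficients only describe them. The IMQ+celastrol cells pool clusters 5 and 10, which differ in the level of all 4 genes, whereas the IMQ cells were nearly all of cluster 5. The coefficients of the 2 libraries are therefore not directly comparable.

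**Figure D4:**
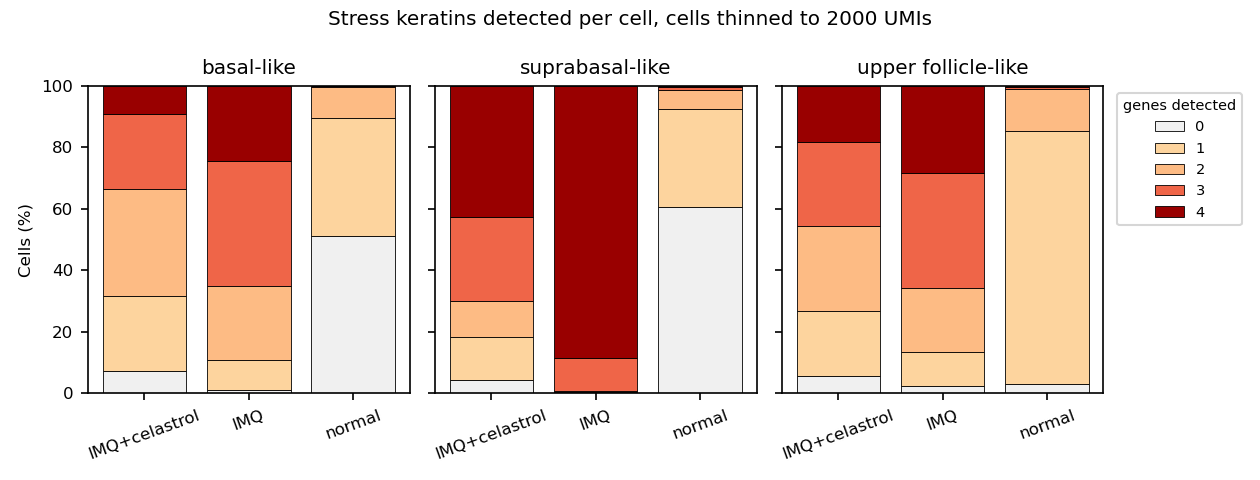
Share of cells (%) in which 0 to 4 of the stress keratins were detected after thinning to 2000 UMIs, by class, for the IMQ+celastrol, IMQ and normal libraries. Among suprabasal-like cells all 4 were detected in 42.7% of IMQ+celastrol, 88.6% of IMQ and 0.348% of normal cells.

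The members also differed between libraries in proportion to each other, a comparison that needs no scaling between libraries. Capture can differ between genes, so these ratios of UMIs are compared between cells and not read as ratios of molecules. There were 3.61 Krt16 UMIs for each Krt17 UMI in IMQ+celastrol suprabasal-like cells, 3.16 in IMQ ones (3.14 to 3.19) and 0.439 in normal ones (0.422 to 0.457). In upper follicle-like cells this ratio was 1.68 in IMQ+celastrol, 1.14 in IMQ and 0.0130 in normal skin. Krt6a to Krt6b was 0.847 in IMQ+celastrol and 0.741 in IMQ suprabasal-like cells, where Krt6b led, but 4.57 and 4.14 in basal-like cells, where Krt6a led. The type II pair sum over the type I pair sum was 0.653 in IMQ+celastrol, 0.764 in IMQ and 0.0411 in normal suprabasal-like cells. Fibroblast-like cells had Krt16 to Krt17 ratios of 2.28 in IMQ+celastrol and 2.03 in IMQ skin, and 0.0679 in normal skin.

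Basal-like and suprabasal-like cells together were binned by the share of Krt1 and Krt10 among their Krt1, Krt10, Krt5 and Krt14 UMIs. This share does not separate the 2 layers. The bin under 5% held 122662 Krt16 UMIs in IMQ skin, against 49228 in all IMQ basal-like cells. In IMQ+celastrol skin it held 61639, against 41096, so in both libraries part of this bin's Krt16 came from suprabasal-like cells. In IMQ skin Krt16 stood at 4920 CPM in cells with under 5% of Krt1 and Krt10, at 15043 CPM between 5% and 20%, and at 18091 CPM between 40% and 60%. In IMQ+celastrol skin the same bins gave 2441, 7069 and 14347 CPM, and in normal skin 215, 404 and 1195 CPM. Krt6a peaked at intermediate shares, at 5358 CPM between 20% and 40% in IMQ+celastrol skin, and in IMQ skin at 7453 CPM between 5% and 20% and 7440.4 CPM between 20% and 40%, whose intervals overlap. In cells above 60% it was at 2758 CPM in IMQ+celastrol, 4121 CPM in IMQ and 24.1 CPM in normal skin. All 4 genes were lower in IMQ+celastrol than in IMQ skin in each of the 5 bins, which held 53 to 762 IMQ+celastrol and 56 to 483 IMQ cells. The share of all genes that were lower was not computed by bin. The bins still mix clusters that the libraries held unequally, such as cluster 10 with 254 IMQ+celastrol and 4 IMQ cells. Within cluster 5 all 4 genes were higher in IMQ+celastrol cells, as given above.

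**Figure D5:**
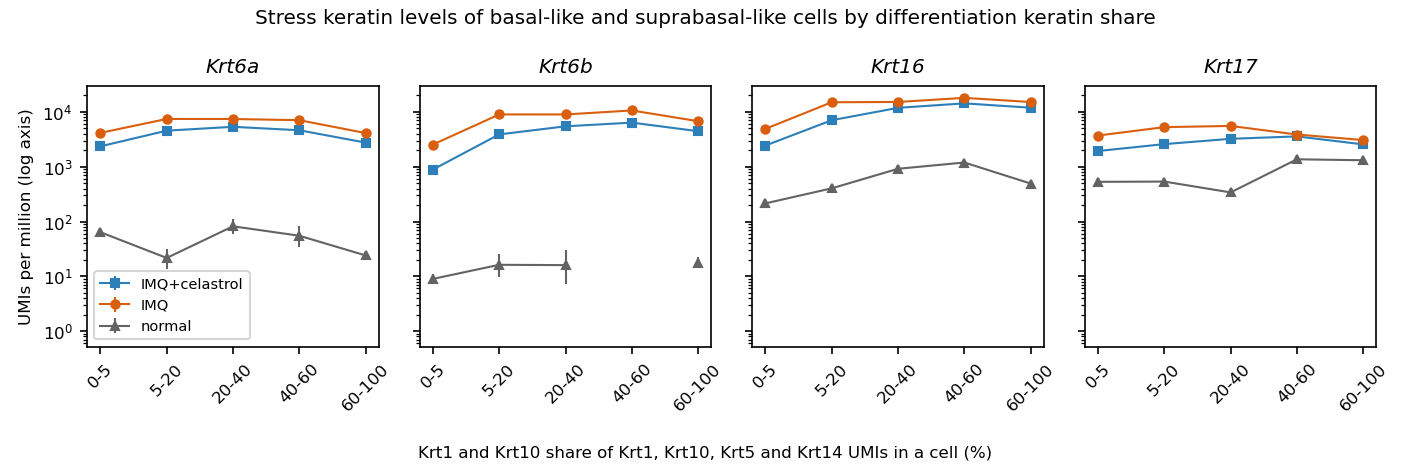
Levels (CPM, log axis) of the stress keratins in basal-like and suprabasal-like cells by the share (%) of Krt1 and Krt10 among Krt1, Krt10, Krt5 and Krt14 UMIs, for the IMQ+celastrol, IMQ and normal libraries, with Poisson 95% intervals. Krt16 reaches 14347 CPM in IMQ+celastrol and 18091 CPM in IMQ cells in the 40 to 60% bin; normal Krt6b has 0 UMIs in that bin.

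Other genes of the activated epidermis were also higher in IMQ than in normal suprabasal-like cells. Of 16 such genes, 15 were measured in suprabasal-like cells of IMQ and normal skin and all 15 were at least 2-fold higher in IMQ skin, with a median log2 ratio of 6.26 against -0.41 for all genes. Sprr2d, a cornified envelope protein, stood at 2876 CPM in IMQ and 1.71 CPM in normal cells, and the alarmin S100a9 at 32357 and 66.9 CPM. The smallest ratio was that of the adhesion receptor Cd44, at 391 CPM in IMQ and 163 CPM in normal cells. In IMQ+celastrol against IMQ suprabasal-like cells, 8 of 16 were at least 2-fold lower (3.34% of all genes) and 1 was higher (9.15%), with a median log2 ratio of -1.25 against 0.14 for all genes. Defb4, a beta-defensin, differed most, at 3.15 CPM in IMQ+celastrol and 39.2 CPM in IMQ cells, 12.5-fold lower. S100a9 was 6.26-fold lower, at 5167 CPM in IMQ+celastrol and 32357 CPM in IMQ cells. The one higher was the cytokine gene Il24, at 5.80 CPM in IMQ+celastrol and 0.430 CPM in IMQ cells. This whole-class comparison mixes clusters 5 and 10, as it did for the stress keratins. In upper follicle-like cells 7 of 16 were at least 2-fold lower in IMQ+celastrol than IMQ cells (1.85% of all genes) and 0 higher (3.98%). Of the 4 stress keratins, 0 were at least 2-fold lower in either class.

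The other keratins of the epidermis and follicle went partly the other way. Of 12 listed, 11 were measured in suprabasal-like cells and 8 were at least 2-fold lower in IMQ than in normal cells, where 25.2% of all genes were, while 1 was higher. Krt77, a type II keratin of suprabasal cells in mouse skin, stood at 1.65 CPM in IMQ and 8818 CPM in normal suprabasal-like cells, and Krt10 at 4219.55 and 14549 CPM. Krt14 was the one at least 2-fold higher, at 15891 CPM in IMQ and 3315 CPM in normal cells. In IMQ+celastrol against IMQ suprabasal-like cells, 5 of 10 measured were at least 2-fold higher, against 9.15% of all genes. Krt15, a basal and bulge keratin, had the largest ratio, at 143 CPM in IMQ+celastrol and 1.58 CPM in IMQ cells, and Krt10 stood at 9831 CPM in IMQ+celastrol and 4219.55 CPM in IMQ cells. Of 20 receptors and transcription factors known to act on stress keratin genes, 18 were measured in suprabasal-like cells, of which 4 were at least 2-fold higher (10.3% of all genes) and 2 lower (25.2%) in IMQ than in normal cells. Between IMQ+celastrol and IMQ cells 0 of 18 were higher (9.15%) or lower (3.34%). The receptor chain Il10rb stood at 6.82 CPM in IMQ and 1.71 CPM in normal cells, and the epidermal regulator Trp63 at 84.6 and 286 CPM.

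Genes with a like pattern were sought over 48 class and library sums among 14110 genes, by Pearson correlation of log2(CPM + 10), given as a description. Krt6b was closest to Sprr1b (0.97), Sprr2d and Sprr2h, which are cornified envelope genes. Krt16 was closest to BC100530 (0.92) and to Krt6a, and Krt6a to 2610528A11Rik (0.92). Krt17 was closest to Dsc3 (0.95), S100a14 and Dsp, of which Dsc3 and Dsp encode desmosomal proteins, and its correlation with Krt6b was 0.34. The sums share libraries and differ in depth, so no error was attached.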

How the data were processed

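Unique molecular identifier (UMI) counts per gene and cell barcode were deposited by the authors, and per the file headers Cell Ranger 4.0.0 made them; the submitters' processing notes name mm10 and GRCm38. No source used here gives other settings. The libraries held 103267738 (IMQ+celastrol), 119831835 (IMQ) and 77880943 (normal) UMIs in 6777, 8236 and 10565 barcodes, of which pairs of libraries shared 15 to 26.

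Cells with fewer than 300 genes or over 20% mitochondrial UMIs were left out, as were the cells with the highest Scrublet scores (scanpy 1.11.5) at 0.8% per 1000 cells, because the automatic threshold marked 1 IMQ cell. Cells were clustered without the 4 stress keratins in 2 rounds (2000 variable genes, 30 components, 15 neighbours, leidenalg 0.10.2 at resolution 1), all cells and then epithelial cells. Clusters were named from 23 marker lists, with thresholds set after the clusters were seen. Of 26 epithelial clusters 10 stayed unnamed and 1 was mixed.

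UMIs were summed by class and library. Levels carry exact Poisson, ratios exact conditional binomial and shares Clopper-Pearson 95% intervals (scipy 1.17.1), which leave out variation between cells, animals and libraries. A gene was called past a ratio of 2 with at least 20 UMIs over both libraries. Counts with known folds were used to test the scripts. With 1 library per group there is no p-value. Members and gene lists were chosen with earlier results of these data known, and named genes were all members, at most 4 examples with the largest or smallest ratios per list and the most alike genes. Krt10 and S100a9 were added from these lists after their values were seen. Promoter and protein sequences of the members were not used here.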

Additional observations from a re-analysis of the deposited data

Results flagged for a closer look

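Among the basal-like, suprabasal-like and upper follicle-like classes, 2 members differed in direction between classes under the same contrast, with counting intervals on either side of no change. These differences between classes were not tested, since each class comes from 1 library per group.

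For IMQ over normal, the log2 ratio of Krt17 was 2.90 in basal-like and 2.01 in suprabasal-like cells but -1.24 in upper follicle-like cells. The upper follicle-like cells of IMQ and normal skin share cluster 1, but with 362 IMQ and 3 normal cells, and the class markers Cst6 and Krt79 were lower in IMQ cells as well.

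For IMQ+celastrol over IMQ, the log2 ratio of Krt6b was -0.87 in basal-like and -0.79 in suprabasal-like cells but 0.55 in upper follicle-like cells. With libraries clustered separately the value in upper follicle-like cells was -4.20, and at resolution 1.6 it was -0.88, so the opposite direction was lost under both.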

How the results depend on the processing

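No paired analysis was possible because each group has 1 library. The count of members at least 2-fold higher in IMQ than normal skin (4, 4 and 3 in basal-like, suprabasal-like and upper follicle-like cells) stayed within 1.5 times under every alternative that gave a value, although basal-like Krt17 had a log2 ratio of 0.52 with a gate on each cell. Upper follicle-like Krt17, at -1.24, was between -1.69 and -0.87, and within 2-fold with libraries clustered separately and, at -0.998, at resolution 0.6. The count of members at least 2-fold lower in IMQ+celastrol than IMQ skin moved further. In basal-like cells it was 0, but 1 with the members in clustering, with libraries clustered separately and with a gate on each cell, and 3 with the mean over cells of each cell's own CPM, with a 1.5-fold line and in cells low in cycling markers, a setting chosen after seeing the data. In suprabasal-like cells it was 0, but 1 with the mean over cells and 3 with a 1.5-fold line. In upper follicle-like cells it was 0, but 3 with libraries clustered separately, where the Krt6b log2 ratio was -4.20. At resolution 1.6 that ratio was -0.88. The share of all genes was not computed for these cells under either clustering. The Krt16 log2 ratio there, 0.01, was between -2.18 and -0.00 under the 4 alternatives that turned it. The cause was not tested. Without thinning, the members with a lower share in IMQ+celastrol than IMQ cells and intervals that do not overlap numbered 2 in suprabasal-like (4 with thinning) and 1 in upper follicle-like cells (2 with thinning). No such count was made over all genes. Restricting the suprabasal-like class to the cluster shared by both libraries, also chosen after seeing the data, turned all 4 members, from log2 ratios of -0.44 to -0.79 to ratios of 0.15 to 0.64. The leading genes of that cluster include those closest to Krt6b in pattern, so this choice of cells is tied to stress keratin level. With doublets kept, 13 IMQ cells were named suprabasal-like and the layer gave no value. The gate gave no upper follicle-like value. The median log2 ratio of all genes in suprabasal-like cells, IMQ over normal, was -0.41 by class totals and 0.07 by the median ratio over genes; neither scaling turned a member. Between 2 and 183 UMIs limit Krt6b in the normal layers.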
